A study of Mus musculus with 2 samples.

Results

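The genes described here are the dual-specificity phosphatases whose symbol is Dusp followed by a number, the 4 Sprouty genes (Spry1 to Spry4) and the 3 Spred genes (Spred1 to Spred3). Many of them are inducible brakes of mitogen-activated protein kinase (MAPK) signalling, and all are called feedback genes here for short, although 14 are atypical phosphatases, several with other functions. The rule for membership uses the symbol only. The files held 31 of them, 24 Dusp, 4 Sprouty and 3 Spred genes, among 23210 genes. The study compared mouse hematopoietic stem cells (HSCs) sorted as CD150+ Flt3- LSK cells (lineage-negative, Sca-1+, Kit+) and separated by a Tomato reporter of Satb1, which encodes a chromatin organiser of lymphoid cells. The SATB1-negative and SATB1-positive groups each had 1 RNA-seq library. The labels used here give no mouse age, no treatment and no number of pooled animals, and both groups carry the same reporter.

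Growth factor receptors such as Kit switch on Ras, which drives the kinases Raf, MEK and ERK in turn; stress and inflammatory signals drive the related kinases JNK and p38. Dual-specificity phosphatases of the MAPK phosphatase type remove the activating phosphates from ERK, JNK or p38, and many of their genes are themselves switched on by the kinase they shut off, which closes a negative feedback loop. Sprouty and Spred proteins act further up, between the receptor and Raf; Spred proteins recruit the Ras-inactivating protein neurofibromin. In blood-forming cells this loop limits the response to cytokines such as stem cell factor, and Spred1 is known as a restraint on HSC activity.

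Among the 21 feedback genes that reached 1 FPKM in a library, the differences between SATB1-negative and SATB1-positive HSCs ran from 1.69-fold lower in the latter (Dusp18) to 1.39-fold higher (Dusp10). The most abundant, Dusp1 and Dusp2, were 1.03-fold and 1.06-fold higher, while Spry1 and Dusp4 were 1.495-fold and 1.51-fold lower. Values are FPKM (fragments scaled by transcript length and library total, as deposited), so levels can be set side by side between genes. Where a pair of values is given, the SATB1-negative library comes first and the SATB1-positive library second. The log2 ratio of a gene compares the second with the first after 1 FPKM was added to each. A gene counted as higher or lower where its log2 ratio reached 1 or -1 and its larger value reached 5 FPKM. Of the 31 genes, 15 reached 5 FPKM, and 0 of these were counted as higher and 0 as lower. Among all 9308 genes that reached 5 FPKM, 1.31% were counted as higher and 0.688% as lower, so a count of 0 in 15 is near the background and is no result about these genes. With 1 library per group no test was possible, and none of the differences below has a replicate check. Intervals given beside a fold are exact 95% intervals on the estimated fragments; they cover counting error only and not the spread between mice or sorts.

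The start regions of 4 of these genes are printed first. Dusp1 and Dusp2 are shown because they were the most abundant genes of the set, Dusp5 because it alone held CArG boxes among the windows searched, and Spry1 because its log2 ratio was the lowest of the set with 1 FPKM added. Each run is the 250 bases before the gene's start, 5′ to 3′ on the gene's strand, from RefSeq (GRCm38.p6). Capitals mark matches to the motifs named after them, except the short cAMP response element (TGACG). That short form is left in lower case where it lies outside a full element. The windows lie at chr17:26508473-26508722 (minus strand) for Dusp1, chr2:127335909-127336158 (plus strand) for Dusp2, chr19:53528895-53529144 (plus strand) for Dusp5 and chr3:37639697-37639946 (plus strand) for Spry1.
Dusp1: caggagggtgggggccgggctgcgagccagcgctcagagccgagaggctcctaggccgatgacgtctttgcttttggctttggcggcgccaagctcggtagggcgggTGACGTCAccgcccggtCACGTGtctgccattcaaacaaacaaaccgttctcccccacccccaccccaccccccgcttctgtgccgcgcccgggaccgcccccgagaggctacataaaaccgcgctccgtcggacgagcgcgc
Dusp2: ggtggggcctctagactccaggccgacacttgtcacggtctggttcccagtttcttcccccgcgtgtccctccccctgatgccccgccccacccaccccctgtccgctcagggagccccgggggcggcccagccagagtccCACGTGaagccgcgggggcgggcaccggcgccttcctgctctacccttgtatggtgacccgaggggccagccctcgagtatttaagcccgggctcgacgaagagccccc
Dusp5: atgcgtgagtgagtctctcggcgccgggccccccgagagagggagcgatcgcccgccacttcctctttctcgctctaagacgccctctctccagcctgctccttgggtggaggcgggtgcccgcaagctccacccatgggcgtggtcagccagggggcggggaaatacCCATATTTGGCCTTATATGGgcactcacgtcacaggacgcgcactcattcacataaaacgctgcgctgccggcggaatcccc
Spry1: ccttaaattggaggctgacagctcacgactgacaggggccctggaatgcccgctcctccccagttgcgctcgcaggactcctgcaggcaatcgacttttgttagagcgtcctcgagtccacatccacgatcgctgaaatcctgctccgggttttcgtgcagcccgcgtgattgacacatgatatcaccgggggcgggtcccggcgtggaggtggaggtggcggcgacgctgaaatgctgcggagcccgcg

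The Dusp1 window held a full cAMP response element (TGACGTCA), starting 143 bases before the gene's start, and an E-box (CACGTG) starting 126 bases before it. The Dusp2 window held an E-box starting 109 bases before the start. The Dusp5 window held a pair of adjoining CArG boxes, the sites of serum response factor, starting 82 and 72 bases before the start. The Spry1 window held none of the motifs searched. The search covered both strands in 26 windows from the RefSeq table for 23 of the 31 genes, 4 of the windows for Dusp13. The 26 leave out any window on chromosome 18, where Spry4 lies. The windows of all genes were not filtered in this way. A full cAMP response element was in 2 of the 26 windows (Dusp1 and Dusp8) against 1.55% of all 32851 windows, an E-box in 2 against 6.02%, and CArG boxes in 1 against 1.47%. The AP-1 motif (TGACTCA or its reverse complement TGAGTCA) was in 1 of the 26 windows against 4.46% of all. The short form of the cAMP response element (TGACG), which is also part of the full element, was in 7 against 17.8%. Outside the full element it started 191 bases before the Dusp1 start and 55 bases before the Dusp5 start. An ETS motif (CCGGAAGT) was in 0 against 2.88%, and a TATA box (TATAAA) in 0 against 12.4%. A match is a match of letters and was not tested as a binding site in these cells.

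In both libraries one class held most of the set's transcripts. The 4 nuclear phosphatases that are induced by signalling (Dusp1, Dusp2, Dusp4 and Dusp5) made up 75.4% and 78.5% of the summed FPKM of the 31 genes. The sums themselves were 1041 and 1037 FPKM, or 0.209% of all FPKM in each library. The atypical Dusp genes, small phosphatases that mostly lack the MAPK-binding domain, followed with 6.99% and 6.68%, and the cytoplasmic ERK phosphatases (Dusp6, Dusp7 and Dusp9) with 6.59% and 5.97%. Sprouty genes gave 5.25% and 3.67%, Spred genes 5.07% and 4.37%, and the JNK and p38 phosphatases (Dusp8, Dusp10 and Dusp16) 0.663% and 0.795%. The Spred sum was thus below the Sprouty sum in the SATB1-negative library and above it in the SATB1-positive library, with Spry1 supplying most of the Sprouty sum in both.

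**Figure D1:**
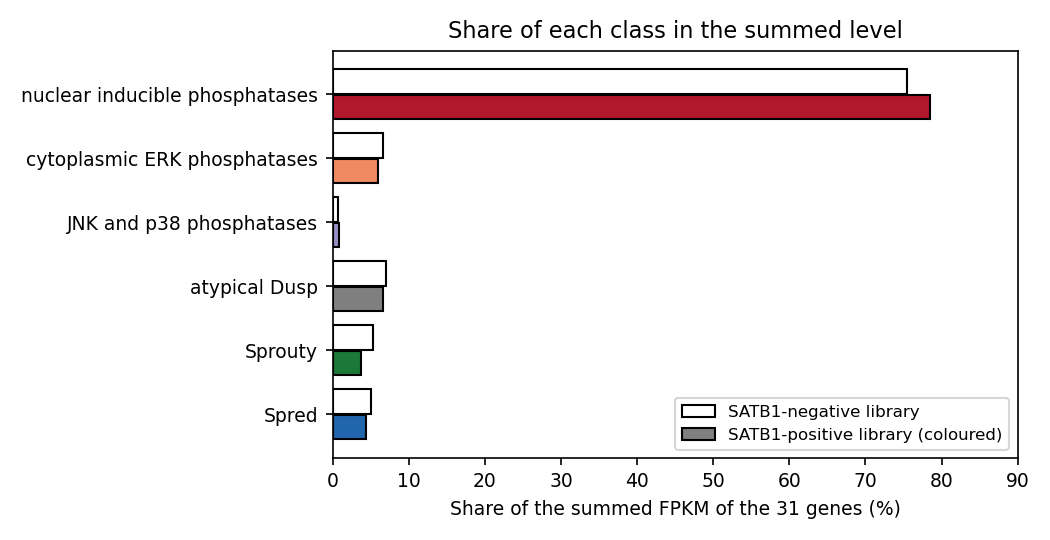
Share of each class in the summed FPKM of the 31 genes, in percent, with the SATB1-negative library as white and the SATB1-positive library as coloured bars. The nuclear inducible phosphatases hold 75.4% and 78.5%, and no other class exceeds 6.99%.

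Dusp1 (mm10 chromosome 17, 26505590 to 26562128, minus strand, in GENCODE) encodes the nuclear phosphatase MKP1 and is an immediate early gene; its annotated exons overlap those of Ergic1 on the opposite strand. The RefSeq start behind the window printed above lies inside this span, because the GENCODE model extends further upstream. Dusp1 was at 497 and 512 FPKM. It ranked 104th and 102nd of the 23210 genes by level, and its log2 ratio was 0.04 (1.03-fold higher, 1.01 to 1.05). Dusp2 (chromosome 2, 127336159 to 127338376, plus strand), which encodes the phosphatase PAC1 first known from activated T cells, was at 231 and 245 FPKM, with ranks 292 and 272 and a log2 ratio of 0.09 (1.06-fold, 1.03 to 1.09). Dusp1 and Dusp2 together held 70.0% and 73.0% of the set's summed FPKM. Dusp5, a nuclear phosphatase that acts on ERK and holds it in the nucleus, was at 48.6 and 51.5 FPKM, a log2 ratio of 0.08 (1.06-fold, 1.01 to 1.11). Dusp4, the near relative of Dusp1 and Dusp2, was the exception in the class, at 8.06 and 5.35 FPKM, 1.51-fold lower in the latter (1.32 to 1.71) with a log2 ratio of -0.51. Its estimated fragments numbered 715 and 361, against 31083 and 24330 for Dusp1.

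**Figure D2:**
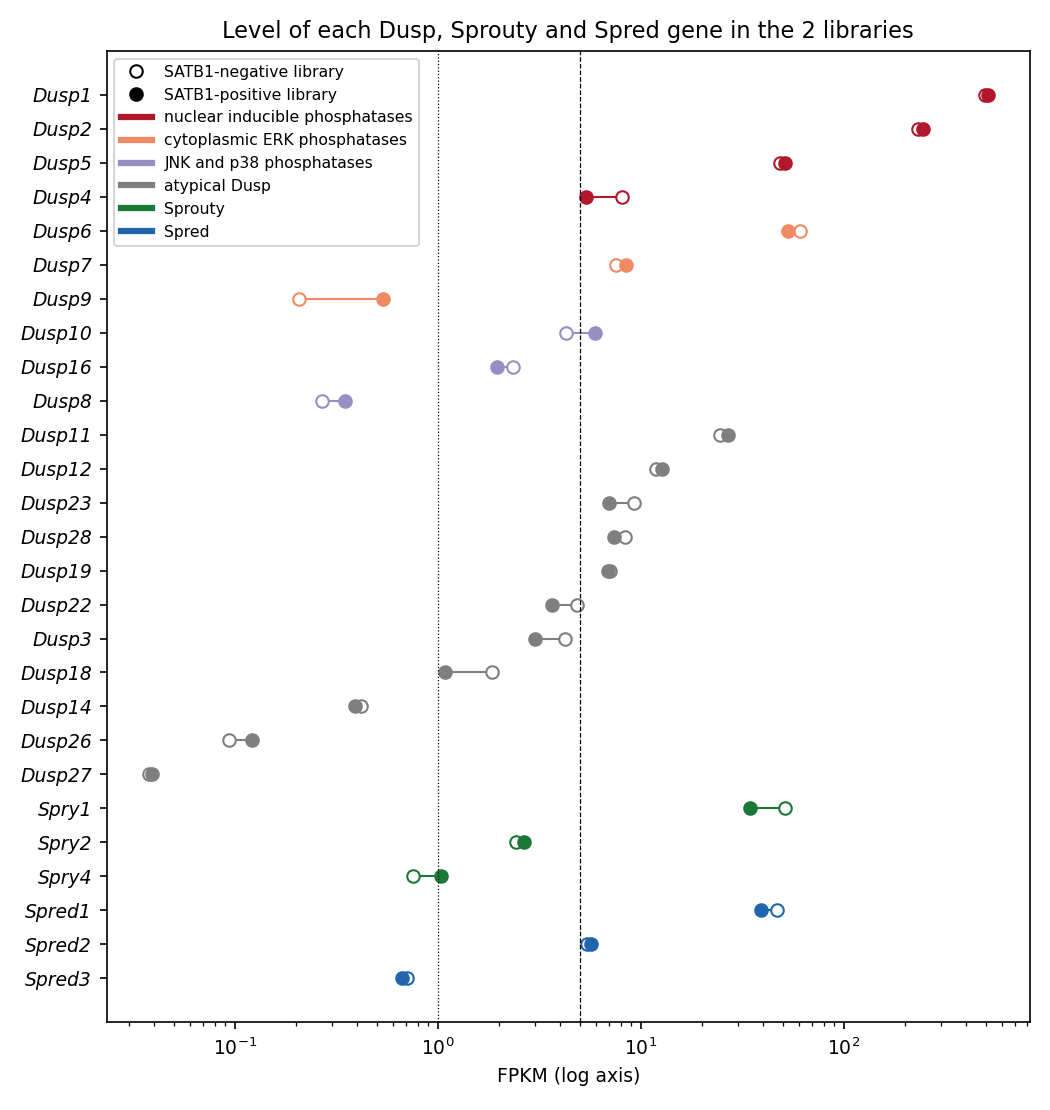
FPKM of each gene in the SATB1-negative (open circles) and SATB1-positive library (filled circles) on a log axis, coloured by class; the dotted and dashed lines mark 1 and 5 FPKM. Dusp1 and Dusp2 lie highest, at 231 FPKM or more in both libraries, and Dusp13, Dusp15, Dusp21 and Spry3, listed at 0 in both, are not drawn.

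The level of Dusp2 was set beside T and natural killer (NK) cell markers, because T cells are a known source of its transcript. All 12 markers of that list had a log2 ratio above 0, and the 8 that reached 5 FPKM were all counted as higher. Of all genes at that level, 1.31% were. Of the 12, 4 passed 1 FPKM only in SATB1-positive cells. The summed level of the 12 was 184 and 441 FPKM. Il2rb, an interleukin-2 receptor subunit, was at 1.69 and 13.6 FPKM, and Cxcr6 at 1.19 and 10.6 FPKM. Dusp2, at a log2 ratio of 0.09, was above every one of these markers in the first library and below Nkg7 alone (152 and 313 FPKM) in the second. What part T and NK cells have in the Dusp2 level was not tested.

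Dusp6, the cytoplasmic phosphatase MKP3 that is specific for ERK, was at 60.8 and 52.9 FPKM. Its log2 ratio was -0.20 (1.15-fold lower, 1.10 to 1.20). Dusp7, its close relative, was at 7.57 and 8.50 FPKM, a log2 ratio of 0.15. Dusp9, the remaining member of the class, was below 1 FPKM in both libraries, at 0.207 and 0.540 FPKM. Its plain ratio of 2.60-fold (1.46 to 4.92) rests on about 18 and 36 fragments, and its log2 ratio was 0.35. At such low levels the added 1 FPKM sets the log2 ratio, so Dusp9 could not be counted.

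Of the phosphatases directed at JNK and p38, Dusp10, which encodes MKP5, was at 4.29 and 5.95 FPKM. Its log2 ratio of 0.39 (1.39-fold higher, 1.21 to 1.60) was the highest among the 21 genes of the set that reached 1 FPKM in a library. Dusp16, which encodes MKP7, was at 2.35 and 1.95 FPKM, a log2 ratio of -0.18. Dusp8 was at 0.268 and 0.349 FPKM, with about 43 fragments in each library.

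Spry1 and Spred1 were the most abundant Sprouty and Spred genes; both had the lower value in SATB1-positive HSCs, and neither was counted as lower. Spry1 (chromosome 3, 37639947 to 37644598, plus strand), an inhibitor of receptor tyrosine kinase signalling whose exons overlap another annotated transcript on the opposite strand, was at 51.4 and 34.4 FPKM, 1.495-fold lower in the SATB1-positive library (1.42 to 1.58; about 4042 and 2055 fragments). Its log2 ratio of -0.57 was the lowest of the set and short of the threshold. With 0.1 FPKM added in place of 1 FPKM, Dusp18 was lower (-0.71), and Dusp4 and Spry1 were both at -0.58. Spry1 ranked 2041st and 3232nd by level. Spry2 was at 2.43 and 2.66 FPKM (log2 ratio 0.10) and Spry4 at 0.754 and 1.04 FPKM (0.22). Because Spry4 passed 1 FPKM only in SATB1-positive cells, its sign was set by that filter. Spred1 was at 46.6 and 39.0 FPKM, 1.19-fold lower (1.11 to 1.28) with a log2 ratio of -0.25. Spred2 was at 5.42 and 5.67 FPKM (0.05) and Spred3 at 0.709 and 0.670 FPKM.

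The values of HSC markers stand here beside Spry1. All 10 markers of the list had a log2 ratio below 0, with a median of -0.51 and a range of -1.19 to -0.31, and their summed level was 525 and 374 FPKM. None was counted as lower at 5 FPKM or more. Hoxb5, at 3.74 and 1.08 FPKM, passed the fold but not the minimum level. Esam, at 68.5 and 34.2 FPKM, was just short of the threshold at a log2 ratio of -0.98. Its plain ratio was 2.01-fold lower (1.89 to 2.13). Of the 21 feedback genes with at least 1 FPKM, 6 had a log2 ratio within the range of the HSC markers and 15 lay above it. The 6 were Spry1, Dusp4, Dusp18, Dusp3, Dusp23 and Dusp22, and of these Dusp18, Dusp3 and Dusp22 were under 5 FPKM. Dusp1, Dusp2, Dusp5, Dusp6 and Spred1 were among the 15. The share of all genes in that range was not counted, so the overlap is no result about these genes. In bulk libraries fewer cells that express a gene and less RNA per cell cannot be told apart. The part of cell composition in the Spry1 difference was not tested.

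**Figure D3:**
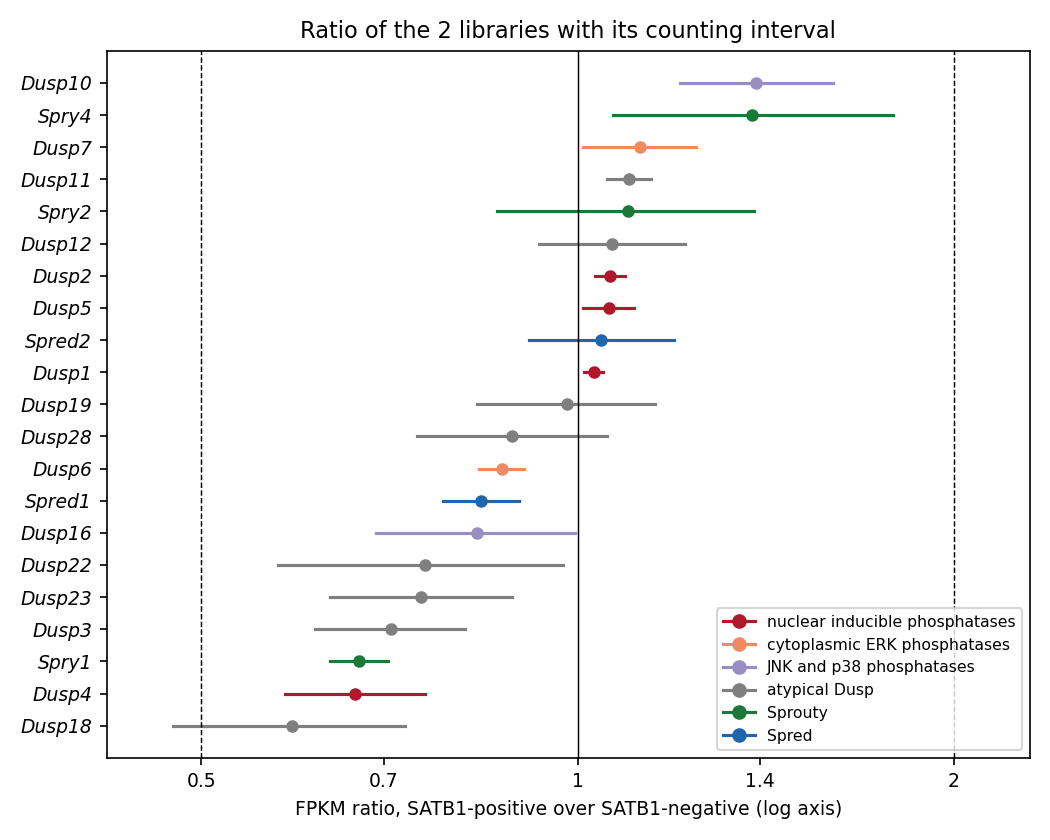
Ratio of SATB1-positive to SATB1-negative FPKM (log axis) for the 21 genes that reached 1 FPKM, with the 95% counting interval as a line; dashed lines mark 2-fold. Abundant genes such as Dusp1 have narrow intervals, and the points run from Dusp18 at 0.591 to Dusp10 at 1.39.

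Of the 14 atypical Dusp genes 8 reached 1 FPKM in a library, and several have functions outside MAPK signalling. Dusp11, an RNA phosphatase that trims the ends of certain RNAs, was the most abundant, at 24.6 and 27.0 FPKM (log2 ratio 0.13). Dusp12, a factor of ribosome assembly, was at 11.9 and 12.7 FPKM (0.08). Dusp23 was at 9.30 and 6.97 FPKM, 1.33-fold lower (1.13 to 1.58) with a log2 ratio of -0.37. Dusp28 was at 8.36 and 7.41 FPKM (-0.15) and Dusp19, which binds components of the JNK pathway, at 7.04 and 6.90 FPKM (-0.03). Below 5 FPKM, Dusp22, a regulator of T cell receptor signalling, was at 4.85 and 3.66 FPKM (-0.33), and Dusp3, which can dephosphorylate ERK and JNK, at 4.25 and 3.01 FPKM (-0.39; 1.41-fold lower, 1.23 to 1.62). Dusp18 was at 1.84 and 1.09 FPKM, and its plain ratio of 1.69-fold lower (1.37 to 2.11) was the largest among the 21 genes, at a log2 ratio of -0.44. Of the 8 atypical genes with at least 1 FPKM, 6 lay below 0 and 2 above on the log2 ratio (median -0.24). Over all genes with at least 1 FPKM, 49.0% lay above 0. Of the 6, Dusp3, Dusp18 and Dusp22 were under 5 FPKM, and the counting intervals of Dusp19 and Dusp28 include equal levels. The split of 8 genes is no result about the class.

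The remaining genes were at the edge of detection. Dusp14 was at 0.418 and 0.393 FPKM, Dusp26 at 0.0932 and 0.121 FPKM and Dusp27 at 0.0377 and 0.0392 FPKM, with 18 estimated fragments or fewer in each library. Dusp13, Dusp15, Dusp21 and Spry3 were listed at 0 in both libraries. At this depth no difference was detectable for these 7 genes. Of the 31 genes, 10 were thus under 1 FPKM in both libraries, Dusp8, Dusp9 and Spred3 being the others.

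Over the 21 genes with at least 1 FPKM, 10 had a log2 ratio above 0 and 11 below, or 47.6% above 0, against 49.0% of all 11873 such genes. The 10 include Spry4. With a mean of at least 1 FPKM required instead, 9 lay above 0, and of the 15 genes with at least 5 FPKM 8 did. Dusp10, 1 of these 8, reached 5 FPKM only in SATB1-positive cells, so its sign at that level was set by the filter. The median log2 ratio of the 21 genes was -0.03 and that of all 11873 such genes -0.0059. Among the 15 genes with at least 5 FPKM the median absolute log2 ratio was 0.15, against 0.16 over all 9308 genes at that level. At a lower threshold of 1.5-fold on the same scale, 0 of the 15 were counted as higher and 0 as lower. Of all genes at that level, 3.8% and 2.9% were. By plain ratio, without the added 1 FPKM, Dusp4 was past 1.5-fold, at 1.51-fold lower, and Spry1 was at 1.495-fold lower. The share of genes counted at either threshold is small enough that a count of 0 in 15 does not set this group apart.

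**Figure D4:**
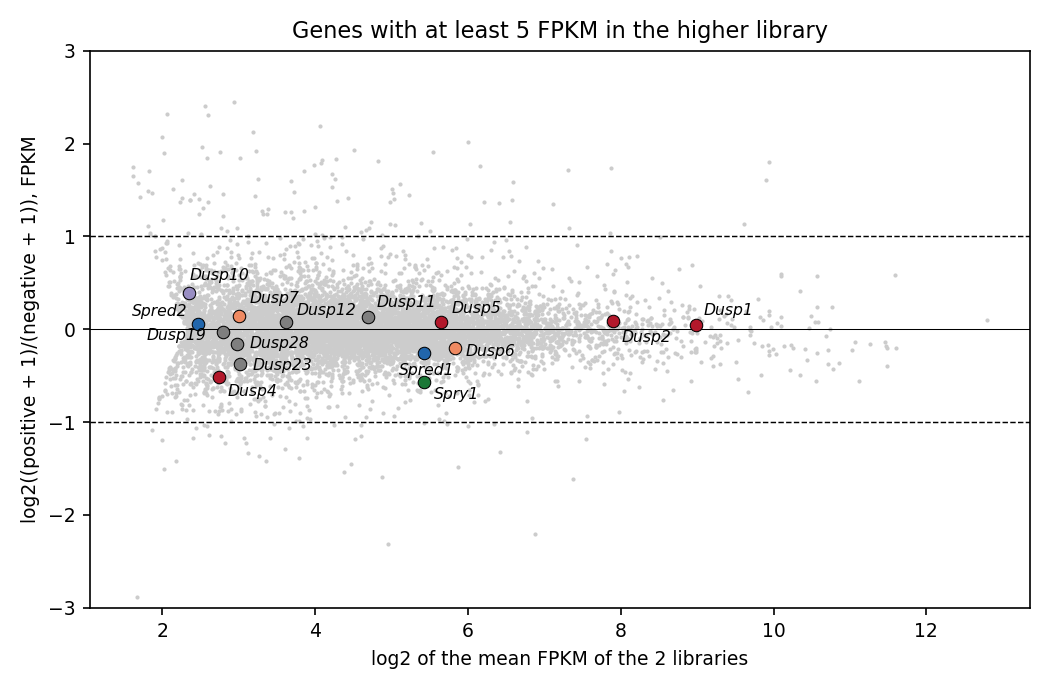
Log2 ratio against the log2 of the mean FPKM for the 9308 genes that reached 5 FPKM (grey), with the 15 feedback genes coloured by class as in the plot of levels and dashed lines at 1 and -1; 38 genes with more extreme ratios lie outside the axis. All 15 feedback genes lie between the dashed lines, from Spry1 at -0.57 to Dusp10 at 0.39.

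The rest of the pathway was described from lists of its parts. The list of ERK output genes holds genes tied to the kinase, some of which respond to it as many MAPK phosphatase genes do. In that list 13 genes reached the 5 FPKM needed to be counted. Of these 1 was lower and 0 higher, against 0.688% and 1.31% of all genes. Of the 16 with at least 1 FPKM, 11 lay above 0 (median log2 ratio 0.11), against 49.0% of all genes with at least 1 FPKM. The gene counted was Ccnd1, which encodes cyclin D1, at 8.19 and 3.51 FPKM (log2 ratio -1.03; 2.33-fold lower, 2.06 to 2.65). Ccnd1 reached 5 FPKM only in the SATB1-negative library, so the minimum set its direction. In the Ras and ERK cascade 0 of the 23 genes with 5 FPKM were counted in either direction, which is near that background. Over the 27 with at least 1 FPKM the log2 ratio ran from -0.67 to 1.37, with a median of -0.02. The highest was Rasgrp1, an activator of Ras in lymphoid cells, at 0.481 and 2.82 FPKM and so below the minimum. Mapk3, a kinase of that cascade, was at 30.2 and 39.2 FPKM, a log2 ratio of 0.37. In the JNK and p38 cascade 0 of 17 genes were counted, again near the background, and the 22 with at least 1 FPKM ran from -0.49 to 0.68 with a median of 0.07. Its most abundant gene Mapk14, which encodes p38 alpha, was at 116 and 119 FPKM.

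Other brakes on Ras and MAPK, which act by routes such as switching Ras off, had 0 of 12 genes counted, also near the background. The 17 with at least 1 FPKM ran from -0.59 to 0.66 on the log2 ratio, with a median of -0.02. Pebp1, a protein that binds Raf and the most abundant of that list, was at 271 and 275 FPKM. Of the 7 receptor tyrosine kinases with 5 FPKM, at the head of the pathway, 1 counted as higher and 0 as lower. Over all genes at that level the shares were 1.31% and 0.688%. Of the 13 receptors with at least 1 FPKM, 9 lay below 0 (median -0.15, range -0.69 to 1.45). Over all genes with at least 1 FPKM, 49.0% lay above 0. The gene counted as higher was Pdgfrb, a receptor of stromal cells, at 3.25 and 10.6 FPKM. Pdgfrb reached 5 FPKM only in the SATB1-positive library, so the minimum set its direction. Of the 6 stromal and endothelial markers with at least 1 FPKM, 4 were counted as higher, Pdgfrb among them. Pecam1, an endothelial marker, and Cxcl12 were not. Kit, the receptor on which the cells were sorted, was at 318 and 286 FPKM, a log2 ratio of -0.15. The lowest of the list was Tek, a receptor found on HSCs and endothelium, at 25.6 and 15.5 FPKM (-0.69). Satb1, whose reporter divided the groups, was at 2.37 and 8.26 FPKM, a log2 ratio of 1.46.

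**Figure D5:**
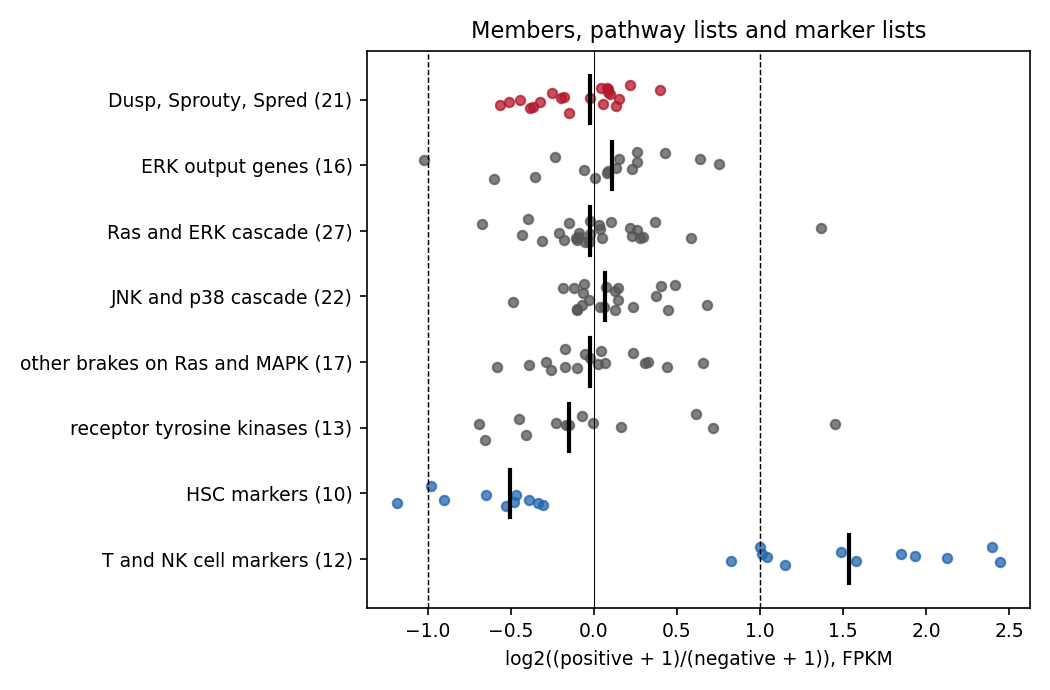
Log2 ratio of each gene that reached 1 FPKM in either sample, for the feedback genes (red), 5 pathway lists (grey) and the HSC and T and NK cell marker lists (blue); numbers of genes stand in brackets, black bars are medians and dashed lines mark 1 and -1. The feedback genes spread from -0.57 to 0.39 around a median of -0.03, while the T and NK markers have a median of 1.53 and the HSC markers one of -0.51.

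The other marker lists describe which cells each library could hold. Of all genes with at least 5 FPKM, 1.31% were counted as higher, for comparison with the counts below. Some counted markers reached 5 FPKM only in the SATB1-positive library, so the minimum set their direction. Fcer1a, Ppbp, Hbb-b1 and Pdgfrb were among them. Of 7 basophil and mast cell markers, 6 were counted as higher, with summed levels of 319 and 726 FPKM; Mcpt8 was at 24.8 and 103 FPKM, and Fcer1a at 1.75 and 9.70 FPKM. Of 10 neutrophil and granule markers 3 were counted as higher, with Mpo at 437 and 1528 FPKM and Ctsg at 31.9 and 111 FPKM; 4 of the 10 lay below 0, Camp lowest at 84.8 and 56.0 FPKM, and the median was 0.11. The counts were 1 of 7 megakaryocyte and platelet markers (Ppbp, 2.27 and 11.2 FPKM) and 1 of 8 erythroid markers (Hbb-b1, 1.15 and 7.01 FPKM, whose reads are shared with near-identical copies). Of 8 stromal and endothelial markers 4 were counted, namely Col1a1 (16.8 and 48.3 FPKM), Col1a2, Pdgfrb and Sparc. The endothelial markers Pecam1 (20.6 and 22.9 FPKM), Kdr and Cdh5 were not counted. Kdr and Cdh5 were under 1 FPKM in both libraries. Cxcl12 was at 4.19 and 2.87 FPKM. None of the 5 monocyte and macrophage markers with at least 1 FPKM was counted, but 4 lay above 0; Lyz2 was at 395 and 416 FPKM and Ly6c2, the highest by log2 ratio, at 167 and 302 FPKM (1.80-fold). The B cell marker Cd79b was at 34.3 and 33.9 FPKM, and the other 5 B cell markers were under 1 FPKM in both libraries. Their part in the levels of the feedback genes was not tested.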

How the data were processed

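RNA was measured in 2 libraries of sorted mouse HSCs, 1 per group, made with a stranded SMARTer kit per the labels' protocols. The authors deposited FPKM for each symbol, per the file headers. Tools listed in the submitters' processing notes are Cufflinks 2.2.1, TopHat2 2.0.13, SAMtools 0.1.19 and Bowtie2 2.2.3, with mm10 as the build; annotation, strand setting and filters: not given in the sources used here. Cufflinks assigns fragments by a model, so genes that overlap others can gain or lose them. Of 23235 rows per file, 25 carried a spreadsheet date in place of a symbol and were left out.

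The files were joined by symbol in Python 3.11.15 (pandas 2.3.3, SciPy 1.17.1), a pseudocount of 1 FPKM was added and the log2 ratio taken. With no counts in the files, depth was estimated from the steps of low values of single-exon genes in GENCODE mouse release M21 (mm10), a search tested on simulated data. It gave 34920000 (SATB1-negative) and 26540000 (SATB1-positive) fragments, with 60.4% of 182 and 62.6% of 211 values whole within 0.05 fragments. A fragment over 1 kb is worth 0.0286 and 0.0377 FPKM. Fragments per gene used the shortest RefSeq-linked transcript, and folds an exact Clopper-Pearson 95% interval; since PCR copies of a molecule are counted apart, such intervals may be narrower than the true counting error. Exons of 11 of the 31 genes overlap another annotated gene, Dusp1, Dusp5 and Spry1 among them on the opposite strand and Dusp19 on the same strand, and their values are less certain.

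Every measured gene of the set is named; from the other lists, the 2 highest and 2 lowest counted genes or, with none, the most abundant, plus Kit, Mapk3 and Satb1; 1 gene that this rule takes is not reported here. Camp, Ccl5, Cdh5, Col1a2, Cxcl12, Esam, Hoxb5, Kdr, Lck, Ly6c2, Nkg7, Pecam1, Rasgrp1, Sparc and Tek were added after their values were seen. The genes and lists were chosen with earlier results of these data known. Symbols absent from the files were matched through RefSeq synonyms. Alternatives were pseudocounts of 0.1 and 5 FPKM, 3 scalings, other minimum levels and folds of 1.5 and 4.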

Additional observations from a re-analysis of the deposited data

How the results depend on the processing

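The count of 0 feedback genes higher and 0 lower held under every alternative run. These were both other pseudocounts, the 3 scalings, minimum levels of 1 and 10 FPKM or none, and thresholds of 1.5-fold and 4-fold. The 10 FPKM minimum and the 4-fold threshold are stricter and could not have added a gene. A lower minimum could not either, because no log2 ratio of the 31 genes reached 1 or -1. The 1.5-fold run kept the added 1 FPKM. By plain ratio Dusp4 was past 1.5-fold, at 1.51-fold lower. The median log2 ratio lay between -0.03 and -0.02 with other pseudocounts and scalings, was 0 over all 31 genes and 0.04 over those with at least 5 FPKM, so its sign is not settled. The largest shift that a scaling gave the median of all genes was -0.0054. The log2 ratio of Spry1 ran from -0.58 with a pseudocount of 0.1 to -0.52 with 5, and that of Dusp18, a low gene, from -0.71 to -0.17. With a pseudocount of 5, the counts of ERK output genes and of receptor tyrosine kinases went from 1 to 0 each. Scaling to TPM raised the count for the Ras and ERK cascade from 0 to 1, because all values roughly doubled and Rasgrp1, at 0.481 and 2.82 FPKM and a log2 ratio of 1.37, passed the minimum. Leaving out a replicate was not possible with 1 library per group. Genes under 1 FPKM rest on few fragments, so differences among them are not resolved at this depth.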
